A study of Mus musculus with 6 samples.

Results

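The 6 mature miRNAs described here come from 3 precursors that are used as vascular markers, miR-126a of the endothelium and miR-143 and miR-145a of smooth muscle cells and pericytes. They are mmu-miR-126a-5p, mmu-miR-126a-3p, mmu-miR-143-5p, mmu-miR-143-3p, mmu-miR-145a-5p and mmu-miR-145a-3p, taken by these names from the miRNA tables, and are 6 of the 1915 mature miRNAs listed and of the 1120 that had at least 10 reads summed over all libraries. Small RNA sequencing was carried out on whole brain of wild-type C57BL/6 mouse embryos at E15.5. The 3 female libraries (F1, F2 and F3) and the 3 male libraries (M1, M2 and M3) each held RNA pooled from 2 to 3 embryos of 1 sex, and embryos were sexed by whether the gonad had testicular cords. The comparison made was male against female.

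A microRNA is cut from a hairpin precursor whose arms give a 5p and a 3p product, and usually one arm is loaded into Argonaute as the guide strand while the other is degraded. The guide recognises target mRNAs mainly through its seed, bases 2 to 8. miR-126 is abundant in endothelial cells, where it is made from an intron of Egfl7, itself an endothelial gene, and its 3p arm represses Spred1 and Pik3r2, inhibitors of VEGF signalling, which favours vessel integrity and angiogenesis. miR-143 and miR-145 are cut from one primary transcript and are abundant in the contractile cells of the vessel wall, where miR-145-5p represses Klf4 and Klf5 and miR-143-3p represses Elk1, factors of the less differentiated smooth muscle state. In a whole embryonic brain these cells are a minority, so the levels below are levels in mixed tissue.

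Of the 6 miRNAs, miR-126a-3p had a mature sequence in the RefSeq table used here (GRCm38.p6), and it is shown because it was one of the 2 that differed between the sexes. Its seed is in capitals in its own line, and its place in the precursor, bases 46 to 67 of 73, is in capitals in the precursor's line. The arms of miR-126b, a hairpin read from the opposite strand of the same locus, are shown with their seeds in capitals because they had no read in any library.
mmu-miR-126a-3p: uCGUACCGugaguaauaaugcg
Mir126a precursor: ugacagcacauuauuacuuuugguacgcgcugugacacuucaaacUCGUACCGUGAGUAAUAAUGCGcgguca
mmu-miR-126b-5p: aUUAUUACucacgguacgaguu
mmu-miR-126b-3p: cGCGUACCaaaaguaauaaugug
In this build the precursor lies at chr2:26591357-26591429 on the plus strand and miR-126a-3p at chr2:26591402-26591423. The miR-126b-5p arm lies at chr2:26591399-26591420 on the minus strand and shares 19 bases with miR-126a-3p, read in the opposite direction. The seed of miR-126a-3p was found at bases 2 to 8 of 0 other miRNAs among the 1623 listed ones with a sequence, so no other miRNA there shared its family by seed.

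In mm9, the build used by the authors, the annotation places the Mir126 precursor at chr2:26446877-26446949 (plus strand) inside Egfl7 at chr2:26435534-26448640, also on the plus strand. Of the 12 annotated transcripts of Egfl7 and Gm20532 that span it, 1 has it in an exon, a retained-intron transcript, and in the others it is intronic. Mir145 (chr18:61807470-61807557) and Mir143 (chr18:61808850-61808912) are both on the minus strand, separated by 1292 bases, and overlap no other annotated gene. The 2 arms of miR-126b and the single listed miR-145b product had 0 reads in all 6 libraries, and a count of 0 allows up to 3 reads, which is 0.0505 CPM in the deepest library and 0.203 CPM in the shallowest. This floor covers counting error only.

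Libraries held 14802675 to 59362011 miRNA reads, and F2, the deepest, had reads for 660 miRNAs where the others had 790 to 915. Libraries of the 2 sexes also differed in miRNAs of other tissues. Lists of miRNAs known from other cell types were summed in CPM, reads scaled to a library total of 1000000 miRNA reads. All 4 skeletal muscle miRNAs were detected in every library and summed to 388 to 1180.1 CPM in females and 5497 to 6139 CPM in males. The 6 epithelial miRNAs summed to 429 to 1133 CPM in females and 7990 to 8284 CPM in males, and of these only miR-141-3p was at 0, in F2. The 8 mesenchymal miRNAs, all detected in every library, summed to 6905 to 20494 CPM in females and 31650 to 37473 CPM in males. That sum includes miR-199a-3p and miR-199b-3p, which cannot be told apart by reads, so largely the same reads were counted for both. In males they were at 12254 to 14273 CPM and 12183 to 14188 CPM. The part of these tissues in the sex differences of the vascular miRNAs was not tested. In bulk RNA, fewer vascular cells and less of a miRNA per vascular cell cannot be told apart. Endothelial and mural mRNAs were not analysed here, so the endothelial and mural origin of the 6 miRNAs is background and was not checked against other markers of those cells.

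The 6 miRNAs together made up 0.890%, 0.778% and 1.47% of miRNA reads in F1, F2 and F3, and 0.821%, 0.631% and 0.609% in M1, M2 and M3. F3 was the highest library, and M1 lay above F2, so the sexes overlapped. The level was set almost wholly by miR-126a-3p and miR-143-3p, which ranked from 27 to 64 among all miRNAs of a library. These did not differ in order, since the ratio of miR-126a-3p to miR-143-3p was above 1 in 2 of 6 libraries. miR-126a-5p and miR-145a-5p came next, with a ratio from 0.619 to 2.23 that was above 1 in 3 of 6 libraries. Those were F1, F2 and F3, so miR-126a-5p was the higher in every female library and the lower in every male one. This order was read from the levels and was not tested. miR-145a-3p was below miR-145a-5p and above miR-143-5p in 6 of 6 libraries. These levels compare sequencing yields, which can differ between miRNAs through ligation and amplification.

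miR-126a-3p, the guide strand of the endothelial miRNA, was measured at 4278, 3729 and 7837 CPM in F1, F2 and F3 and at 3757, 2882 and 2564 CPM in M1, M2 and M3. F3 stood well above the other females, and M1 reached just above F2. The means were 5281 ± 2230.2 CPM in females and 3068 ± 618 CPM in males (SD, n = 3 each). The less abundant arm, miR-126a-5p, was at 228, 135 and 309 CPM in F1 to F3 and at 142.8, 121 and 126.5 CPM in M1 to M3. Here too F3 was the highest library and F2 lay among the males. The means were 224 ± 87.1 CPM in females and 130.2 ± 11.2 CPM in males.

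miR-143-3p, the guide strand of the first mural miRNA, was at 4182, 3757 and 6398 CPM in F1 to F3 and at 4025, 3083 and 3145 CPM in M1 to M3. Again F3 stood highest, and M1 lay between F2 and F1. Means were 4779 ± 1418 CPM in females and 3418 ± 527 CPM in males. miR-143-5p, its passenger strand, was scarce, at 7.63, 4.72 and 12.1 CPM in F1 to F3 and at 2.94, 5.35 and 7.32 CPM in M1 to M3. The sexes overlapped, with F2 below M2 and M3 and M1 the lowest. The lowest of these values was 55 reads in M1, 2.94 CPM with an exact Clopper-Pearson 95% interval of 2.22 to 3.83 CPM, which covers counting error only because no molecular identifiers were described.

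miR-145a-5p, the guide strand of the other mural miRNA, showed another order, at 163, 93.9 and 139 CPM in F1 to F3 and at 231, 179.9 and 195 CPM in M1 to M3. All males lay above all females, and F2 was the lowest library. Means were 132 ± 35.3 CPM in females and 202 ± 26.0 CPM in males (exact two-sided permutation test on CPM, p = 0.1, the smallest that 3 against 3 allows). Groups that do not overlap in CPM were found for 23.9% of the 1120 miRNAs tested, against 1 of these 6. miR-145a-3p was at 38.0, 61.6 and 43.0 CPM in F1 to F3 and at 48.8, 43.4 and 49.9 CPM in M1 to M3. F2 was the highest library for this arm and the lowest for the other, and the means, 47.5 ± 12.4 CPM in females and 47.3 ± 3.45 CPM in males, were nearly equal.

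**Figure D1:**
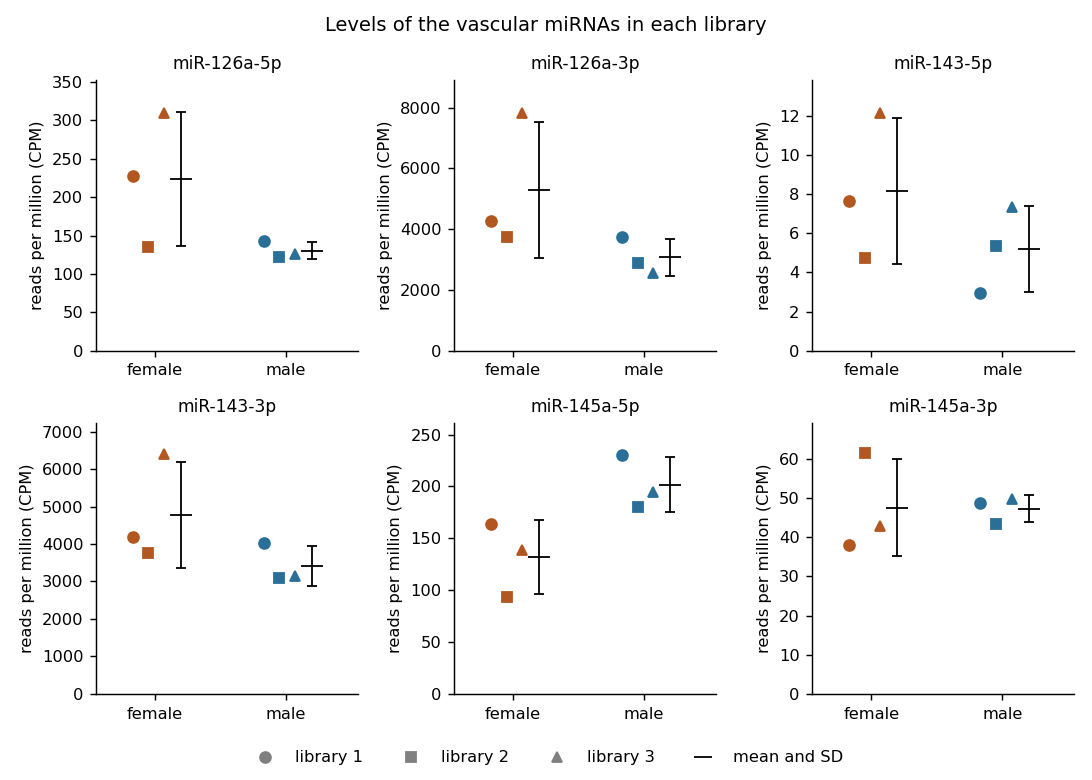
Level of each of the 6 miRNAs, in CPM (vertical axes, each starting at 0), in the 3 female and 3 male libraries; each symbol is 1 library, and the bars give the mean and SD. F3 is the highest library for both miR-126a arms and both miR-143 arms, and all 3 males lie above all 3 females for miR-145a-5p.

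Both arms of miR-126a were lower in male than in female brain and were the 2 of the 6 miRNAs that were sex-biased. With edgeR's quasi-likelihood test (TMM scaling, Benjamini-Hochberg adjustment over 1120 miRNAs), 8.48% of all miRNAs tested were called, that is, had an adjusted p under 0.05, 36 higher in males and 59 higher in females. miR-126a-3p fell by 0.91 on the log2 scale in males (SE 0.25, edgeR adjusted p = 0.0172), which is 1.88-fold higher in females. miR-126a-5p fell by 0.90 (SE 0.24, edgeR adjusted p = 0.0156), 1.86-fold higher in females. After TMM scaling of the CPM, the sexes no longer overlapped for either arm. The scaled levels of miR-126a-3p were 4239, 4221 and 7985 CPM in F1 to F3 and 3282, 2989 and 2475 CPM in M1 to M3, so F2 moved above every male and F3 remained the highest. Those of miR-126a-5p were 226, 153 and 315 CPM in F1 to F3 and 125, 125.9 and 122 CPM in M1 to M3, with the males close together and F2 the female nearest to them.

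The miR-126a calls depended on which libraries entered, as did the number of calls over all miRNAs tested. That number was 95 with all libraries, 60 without F3, 30 without M1, 83 without M3 and 203 without F2. With 1 library left out, miR-126a-5p was called in 4 of 6 fits and miR-126a-3p in 3 of 6. Without F3 the log2 fold change of miR-126a-3p was -0.54 (edgeR adjusted p = 0.164) and that of miR-126a-5p was -0.61 (edgeR adjusted p = 0.132). Leaving out M1 kept the differences at -1.005 and -0.90, but at edgeR adjusted p of 0.170 and 0.223. Without M3 miR-126a-3p was at -0.81 (edgeR adjusted p = 0.0660). Without F2, the library with the fewest detected miRNAs, the differences were -1.07 and -1.12, with edgeR adjusted p of 1.33e-05 and 2.57e-06. Scaling by library size alone moved the median log2 fold change of all 1120 miRNAs by 0.12 and gave 50 miRNAs higher in males and 39 higher in females. Relative to that median, miR-126a-3p was at -0.90 with TMM and -0.89 with library size, but with library size neither arm passed (edgeR adjusted p = 0.0797 for miR-126a-3p and 0.0839 for miR-126a-5p).

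The mural miRNAs did not pass the test, and their guide strands had opposite signs. The log2 fold change of miR-143-3p in males against females was -0.61 (SE 0.22, edgeR adjusted p = 0.104). That of miR-145a-5p was 0.49 (SE 0.22, edgeR adjusted p = 0.202). The TMM-scaled levels of miR-143-3p were 4144, 4253 and 6519 CPM in F1 to F3 and 3516, 3197 and 3037 CPM in M1 to M3. Those of miR-145a-5p were 162, 106 and 141 CPM in F1 to F3 and 202, 187 and 188 CPM in M1 to M3. Neither miRNA's sexes overlapped on this scale, one with the females above and the other with the males above. On the scaled levels 4 of the 6 miRNAs did not overlap, both miR-126a arms and these, against 23.8% of all miRNAs tested. The scarcer mural arms were at -0.73 (SE 0.80, edgeR adjusted p = 0.675) for miR-143-5p and -0.16 (SE 0.32, edgeR adjusted p = 0.856) for miR-145a-3p, and their scaled levels overlapped.

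DESeq2 with 1 factor of unwanted variation taken from the residuals (RUVr), the kind of fit the study used, called 19.3% of all miRNAs tested and 3 of these 6. miR-126a-3p and miR-126a-5p were both at -0.92 with DESeq2 adjusted p of 6.22e-04 and 1.12e-04. miR-143-3p, at -0.61, had a DESeq2 adjusted p of 0.0117, where edgeR's test without the factor had not called it. miR-145a-5p was at 0.49 with a DESeq2 adjusted p of 0.0543. Under this fit the median log2 fold change of all miRNAs was 0.24, and relative to it miR-143-3p was at -0.85 and miR-145a-5p at 0.25. The number of factors the study used is not given in the sources used here.

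**Figure D2:**
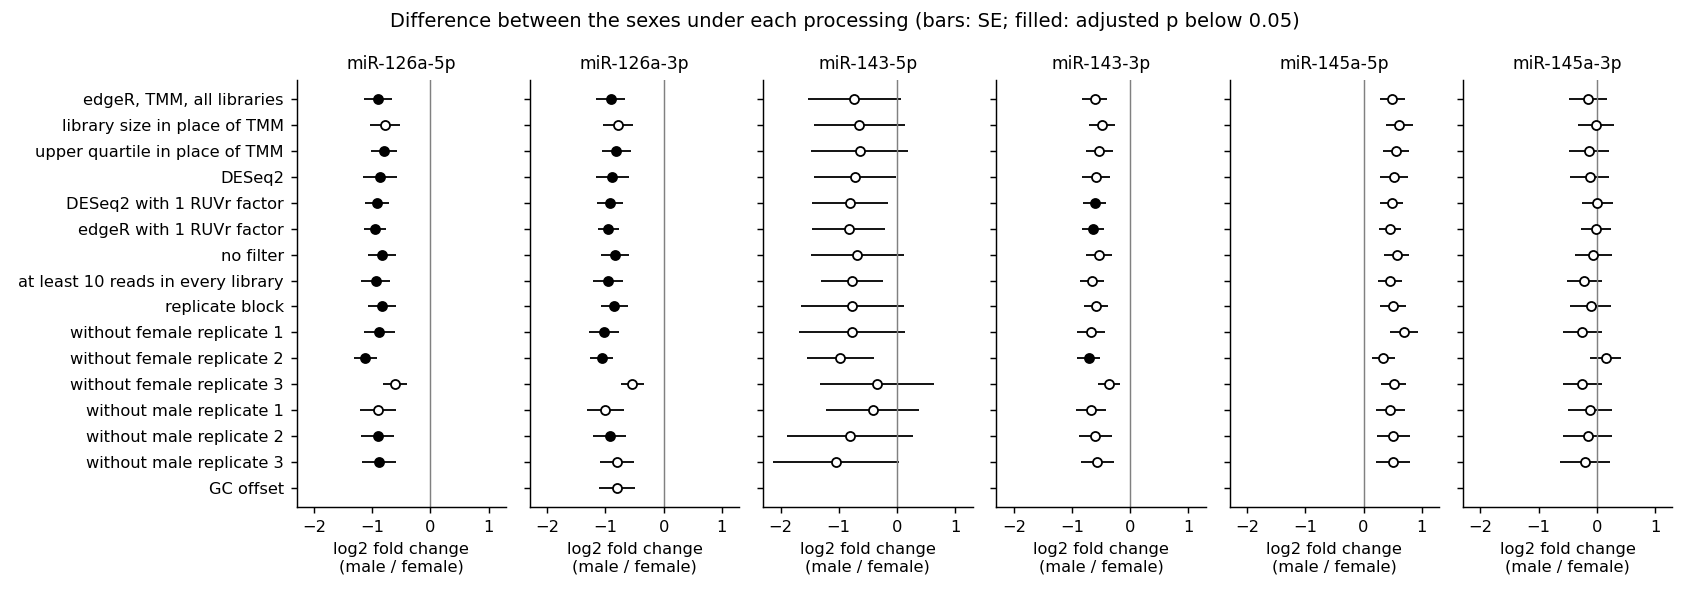
Log2 fold change of males against females (horizontal axes) for each miRNA under each processing (rows), with SE bars and filled points where the adjusted p is under 0.05; the GC offset row has a point for miR-126a-3p alone because the other arms had no sequence. All points of both miR-126a arms and of miR-143-3p lie below 0 and all points of miR-145a-5p above 0, while miR-145a-3p crosses 0 with DESeq2 and 1 RUVr factor and without F2.

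The ratio of miR-143-3p to miR-145a-5p, which come from one primary transcript, was higher in each female library than in any male library, and as a ratio of reads within a library it does not depend on scaling. It was 25.6, 40.0 and 46.1 in F1, F2 and F3 and 17.4, 17.1 and 16.1 in M1, M2 and M3. The males lay within a narrow range, and every female was above it, with F1 the nearest. The means were 37.2 ± 10.5 in females and 16.9 ± 0.693 in males (SD, n = 3 each), a log2 difference of -1.10 in males against females, or 2.14-fold higher in females. The exact two-sided permutation test gave p = 0.1, the smallest it can give. Leaving out 1 library at a time gave differences from -1.35 to -0.92. Fitted with limma beside the 254 pairs of arms described below, the difference had an SE of 0.34 and a limma adjusted p of 0.403. A variance trend, added after the values were seen, gave an SE of 0.24 and a limma adjusted p of 0.0772.

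The endothelial and the first mural guide strand were close to equal in every library. miR-126a-3p over miR-143-3p was 1.02, 0.992 and 1.22 in F1 to F3 and 0.934, 0.935 and 0.815 in M1 to M3. This ratio was chosen after its values were seen, and the sexes did not overlap, although the gap between F2 and M2 was small. The means were 1.08 ± 0.126 in females and 0.894 ± 0.0687 in males, a log2 difference of -0.27 (exact two-sided permutation test, p = 0.1; limma adjusted p = 0.703).

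A sex difference in arm ratio was not detectable for any of the 3 hairpins. Arm ratios compare the products of one hairpin, and limma on log2 of 5p over 3p reads was fitted to 254 pairs of arms, of which 0% were called and 23 had an unadjusted p under 0.05. With a variance trend 38 had such a p and 0 were called. For miR-126a the 3p arm was 18.8, 27.6 and 25.3 times the 5p arm in F1 to F3 and 26.3, 23.7 and 20.3 times in M1 to M3, a log2 difference in 5p over 3p of 0.018 (SE 0.31, limma adjusted p = 0.979). The 3p arm of miR-143 had 548, 796 and 528 times the reads of the 5p arm in F1 to F3 and 1367, 576 and 429.6 times in M1 to M3, and M1, with 55 reads of the 5p arm, was the highest (difference -0.18, SE 0.53, limma adjusted p = 0.885). In miR-145a the 5p arm was the larger, 4.30, 1.52 and 3.23 times the 3p arm in F1 to F3 and 4.73, 4.15 and 3.91 times in M1 to M3. F2 was the lowest (difference 0.62, SE 0.47, limma adjusted p = 0.658), and without it the difference was 0.19.

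**Figure D3:**
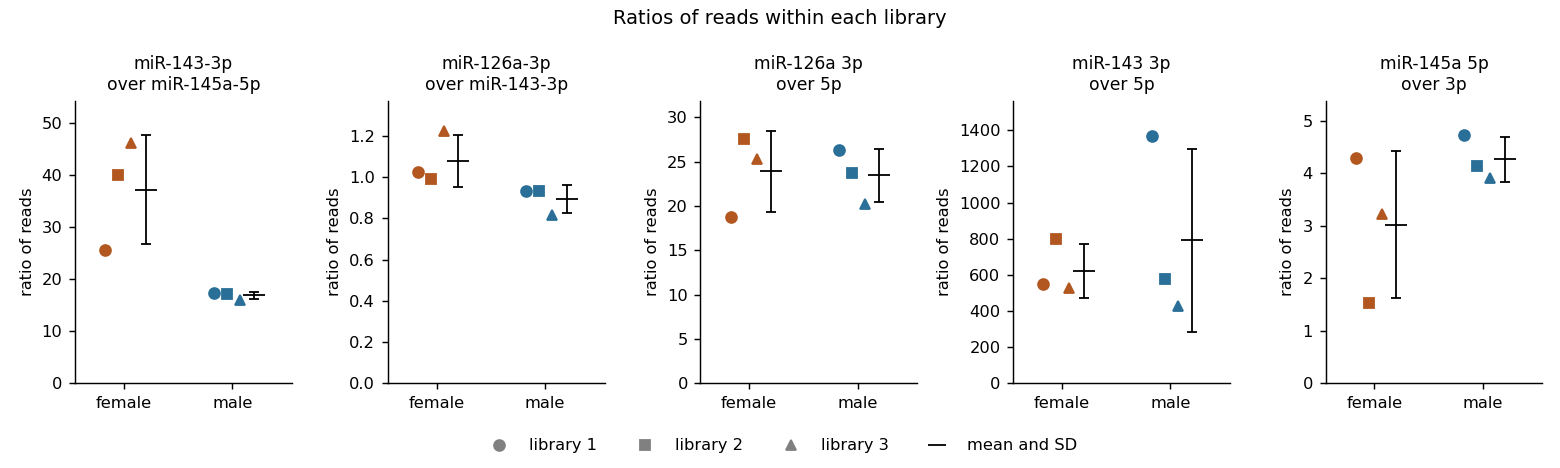
Ratios of reads within each library (vertical axes, each starting at 0) for the pairs named above the panels; each symbol is 1 library, and the bars give the mean and SD of 3 libraries. The ratio of miR-143-3p to miR-145a-5p is 25.6 to 46.1 in females and 16.1 to 17.4 in males, and the ratios of arms overlap between the sexes.

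The patterns over libraries were also compared by the root mean square difference of log2 CPM, each miRNA centred on its own mean over the 6 libraries, among 552 other miRNAs that averaged 100 reads or more. These are descriptions of 6 libraries that share their depth and scaling, and the sex difference is part of each pattern. The pair of the 6 miRNAs with the smallest difference was miR-126a-3p and miR-143-3p, at 0.18. This put miR-143-3p at place 4 of 552 for miR-126a-3p, and miR-126a-3p at place 13 of 552 for miR-143-3p. The arms of miR-126a differed by 0.20, place 11 of 552. miR-143-3p and miR-145a-5p, although from one transcript, differed by 0.61, place 310 of 552 for miR-143-3p, above the median of 0.56 over all candidates.

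The miRNAs nearest to miR-126a-3p were miR-20a-5p of the miR-17-92 cluster (0.14), miR-16-5p (0.15) and miR-144-5p of the erythroid miR-144/451a transcript (0.16). miR-16-5p was at 12459, 10633 and 18488 CPM in F1 to F3 and 8841, 8592 and 7648 CPM in M1 to M3, with F3 highest and the males lowest. Nearest to miR-143-3p were miR-411-5p (0.080), miR-24-3p (0.10) and miR-29a-3p (0.11). miR-24-3p was at 4045, 3355 and 6445 CPM in F1 to F3 and 4446, 2905 and 2861 CPM in M1 to M3, again with F3 highest. Nearest to miR-145a-5p were miR-431-5p (0.098), miR-127-3p (0.10) and miR-324-5p (0.12). miR-127-3p was at 4760, 3001 and 3710.0 CPM in F1 to F3 and 7436, 5406 and 5315 CPM in M1 to M3, with F2 lowest and M1 highest, as for miR-145a-5p. miR-411-5p, miR-431-5p and miR-127-3p are all made from the imprinted Dlk1-Dio3 region.

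**Figure D4:**
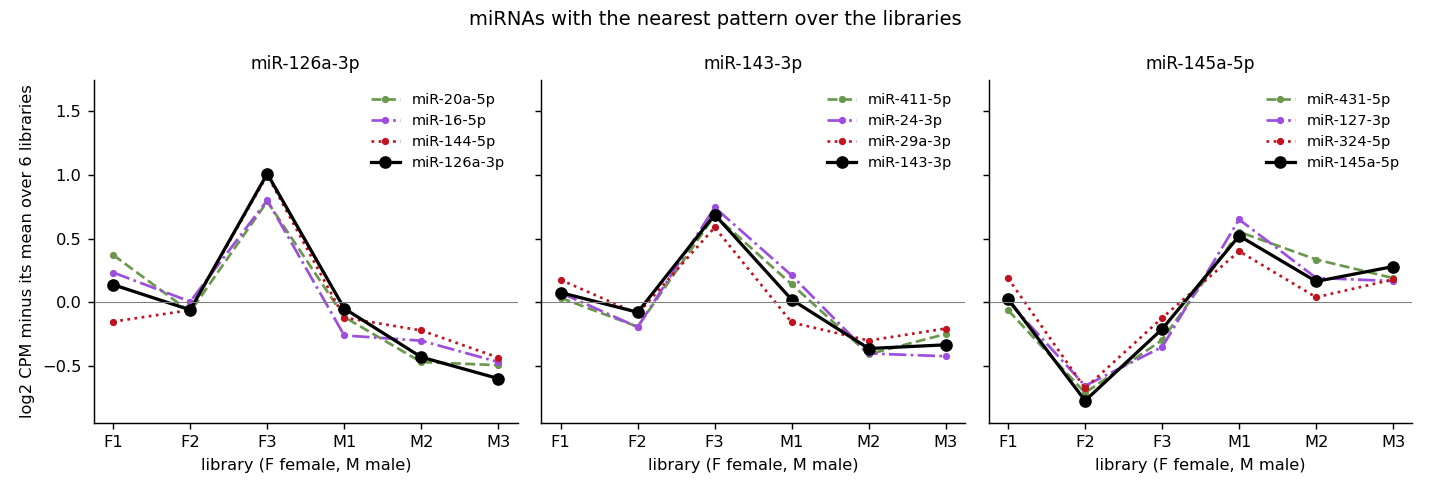
Log2 CPM of each guide strand and of the 3 miRNAs nearest to it, centred on each miRNA's mean (vertical axis), over the 6 libraries (horizontal axis; F female, M male). miR-126a-3p and miR-143-3p peak in F3, and miR-145a-5p is lowest in F2 and highest in M1.

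Other miRNAs known from endothelium and angiogenesis were spread on both sides of 0. Of 13 such miRNAs, all tested, 1 was lower in males, miR-130a-3p, which represses anti-angiogenic homeobox genes (log2 fold change -0.69, SE 0.22, edgeR adjusted p = 0.0443), and 0 were called higher in males by edgeR. At an unadjusted p under 0.05 in edgeR's test, 6 of the 13 were higher and 3 lower in males, where 18.4% of all miRNAs tested had such a p in either direction. DESeq2 called 4 higher and 1 lower in males, against 11.5% of all miRNAs tested, and DESeq2 with 1 RUVr factor called 6 higher and 2 lower, against the 19.3% given above. Their median log2 fold change was 0.35, where that of the 6 vascular miRNAs was -0.67 and that of all miRNAs tested was -0.015. miR-24-3p, which had the highest mean level over the 6 libraries, was at -0.57 (edgeR adjusted p = 0.164). miR-27b-3p, which lay above it in all 3 males, was at 0.46 (edgeR adjusted p = 0.215). Summed, the 13 miRNAs were at 10162 to 14653 CPM in females and 14053 to 16411 CPM in males.

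The lists of other cell types moved in several directions. Of all 1120 miRNAs tested, edgeR called 8.48%, 36 higher in males and 59 higher in females. The lists were chosen with earlier results of these data known, so their calls are descriptions. All 4 skeletal muscle miRNAs were called higher in males by edgeR, with a median log2 fold change of 2.91 (miR-206-3p at 4.02). DESeq2 called 3 of them, all but miR-133b-3p (DESeq2 adjusted p = 0.132), where it called 11.5% of all miRNAs tested. Of 6 epithelial miRNAs 5 were called higher in males, with a median of 2.63 (miR-205-5p at 5.04). Of 8 mesenchymal miRNAs 6 were called higher in males, with a median of 1.201 (miR-214-3p at 2.38). miR-199a-3p, the mesenchymal miRNA with the highest mean level, was at 1.202. miR-199b-3p had nearly the same counts, since the mature forms cannot be told apart by reads, so their 2 calls rest on nearly the same reads.

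Among the miRNAs of red blood cells the signs were mixed. Of 5 red blood cell miRNAs 2 were called higher in males by edgeR, where 8.48% of all miRNAs tested were called. These were miR-486a-5p and miR-486b-5p (0.80 and 0.81), which are near-identical, so their 2 calls rest on nearly the same reads. The erythroid miR-451a was at 0.18 (SE 0.41, edgeR adjusted p = 0.869), while miR-144-3p and miR-144-5p, from the same transcript, were at -0.97 and -0.74 (edgeR adjusted p = 0.703 and 0.480). The list had a median of 0.18 and summed to 1284 to 2705 CPM in females and 3172 to 3927 CPM in males. That sum consisted mainly of miR-486a-5p and miR-486b-5p, with means of 893 and 891 CPM in females and 1744 and 1746 CPM in males. Their reads were largely counted for both. miR-451a averaged 27.0 CPM in females and 32.6 CPM in males, so the sum does not describe it. Of 7 leukocyte and microglial miRNAs 0 were called by edgeR's test and 0 by DESeq2, with 0 at an unadjusted p under 0.05 in either. miR-142a-3p had the largest difference, -2.55 (SE 1.805, edgeR adjusted p = 0.480), and miR-146a-5p, the highest by mean level, was at 0.25. The median was 0.11. The sums of the list overlapped, at 287 to 476 CPM in females and 398 to 528 CPM in males, and miR-223-5p alone was at 0, in F2 and M1. Of 5 neuronal miRNAs, all detected in every library, 2 were called lower in males by edgeR, against 8.48% of all miRNAs tested. These were miR-9-3p (-1.195) and miR-138-5p (-0.99). All 5 had log2 fold changes below 0, with a median of -0.56, and miR-9-5p, the highest by mean level, was at -0.36 (edgeR adjusted p = 0.555). The sums did not overlap and were 226095 to 267126 CPM in females and 180325 to 208809 CPM in males. They consisted mainly of miR-9-5p, with means of 187837 CPM in females and 158811 CPM in males, and miR-9-3p, with 41400 and 19491 CPM. miR-128-3p was nearly equal, with means of 6722 and 6874 CPM (log2 fold change -0.095, edgeR adjusted p = 0.870). These values are miRNA reads of chosen lists and do not measure blood or neuronal content. The part of blood and neuronal content in the sex differences of miR-126a was not tested.

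**Figure D5:**
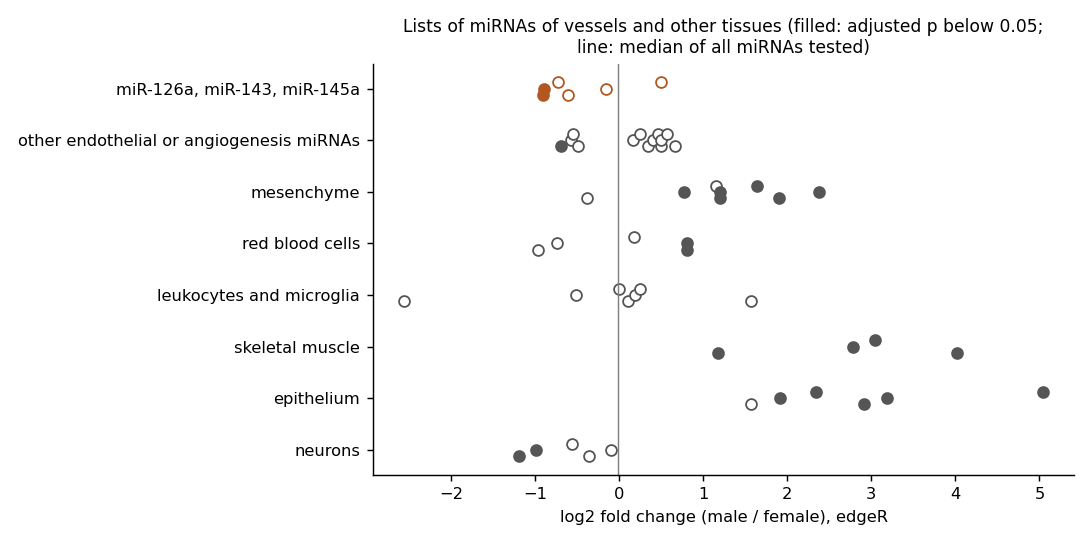
Log2 fold change of males against females from edgeR's quasi-likelihood test (horizontal axis) for each miRNA of each list (rows), filled where the adjusted p is under 0.05; the vertical line is the median of all miRNAs tested. The filled vascular points are the 2 arms of miR-126a, below 0, while the filled muscle, epithelial and mesenchymal points lie above 0.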

How the data were processed

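Whole-brain RNA of E15.5 embryos was made into TruSeq small RNA libraries and sequenced as single-end reads. Per the labels and the study's methods, the authors trimmed adapters with cutadapt 1.15, aligned with Bowtie 1.2.1 to mm9 and counted reads per mature miRNA with miRDeep2. The deposited values are raw counts. miRDeep2 can count a read for each of several near-identical miRNAs. Libraries are pools, and no batch is labelled, so p-values measure the spread between these pools.

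CPM is reads scaled to a library total of 1000000. miRNAs with a sum of at least 10 reads were fitted (edgeR 4.0.16 quasi-likelihood, TMM; R 4.3.3), with DESeq2 1.42.0 and RUVr as alternatives, and ratios with 0.5 reads added by limma 3.58.1 and by exact permutation. Scripts were tested on simulated data. Named miRNAs were the 6 members, the 3 nearest patterns of each guide strand, and from each list the highest by mean CPM and by absolute fold change; others were named after their values were seen. Members and lists were chosen with earlier results of these data known. Positions are from GENCODE vM1 (mm9), and sequences from RefSeq (GRCm38.p6).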

Additional observations from a re-analysis of the deposited data

How the results depend on the processing

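Alternatives to edgeR with TMM were tried 1 at a time. The number of miRNAs called, 95, became 216 with DESeq2 and 1 RUVr factor, 189 with edgeR and 1 RUVr factor and 53 of 951 with a GC offset, and ranged from 30 (without M1) to 203 (without F2) when 1 library was left out. It was 60 without F3. For miR-126a-5p the log2 fold change was -0.78 with library size scaling (no longer called) and -1.12 to -0.61 with 1 library left out. For miR-126a-3p it was -0.78 with library size scaling and -0.80 with a GC offset (neither called, edgeR adjusted p = 0.0797 and 0.131) and -1.07 to -0.54 with 1 library left out. The GC offset could be fitted for miR-126a-3p alone of the 6. miR-143-3p was called at -0.61 and -0.64 with RUVr in DESeq2 and edgeR and at -0.71 without F2, and ranged to -0.37 without F3. miR-145a-3p turned positive with DESeq2 and RUVr (0.0091) and ranged from -0.25 to 0.15 over left-out libraries. The arm ratio of miR-126a ranged from -0.095 to 0.18 (-0.095 without F2, -0.083 without M3, -0.034 without F3), and that of miR-143 from -0.53 to 0.30, positive without M1. The causes were not tested.

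Same-numbered samples did not deviate together (correlations of -0.11, -0.00085 and 0.17 over 553 miRNAs), so the numbers were not used for pairing. F1 correlated best with M3 (0.11), F2 with M1 (0.17) and F3 with the same-numbered M3 (0.17). A replicate block gave 92 calls and log2 fold changes of -0.83 for miR-126a-5p, -0.85 for miR-126a-3p, -0.58 for miR-143-3p and 0.51 for miR-145a-5p, and changed no call of the 6 miRNAs. Each miR-126a arm kept its direction in all alternatives, and miR-126a-5p was called in 11 of 14 and miR-126a-3p in 10 of 15. miR-145a-5p was called in 0 of 14, with adjusted p from 0.0543 to 0.520. With 3 libraries per sex, permutation cannot give a p under 0.1. The fewest reads behind any level are the 55 of miR-143-5p in M1, with a counting interval of 2.22 to 3.83 CPM that lies below its level in the other libraries.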
